A study of Mus musculus with 18 samples.

Results

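Naive CD4 T cells that over-express the microRNA cluster of miR-23, miR-27 and miR-24 (cluster Tg) were set against naive CD4 T cells that lack both copies of it (DKO), the widest span of cluster dose in the series. Each genotype had 3 RNA-seq libraries. The deposited table gives RPKM (reads scaled by transcript length and by the size of the library) for 23953 gene rows. A row was kept where at least 3 of the 6 libraries held 1 RPKM or more, which left 10556 rows (44.1%). All 6 libraries reached 1 RPKM in 9654 of them, while 202 rows passed only through the 3 cluster Tg libraries and 47 only through the 3 DKO libraries. The cluster Tg mice over-express the entire cluster in T cells, and the DKO mice carry a T cell-specific deletion of the a and b clusters. Wild-type (WT) mice and mice over-expressing miR-23, miR-24 or miR-27 alone in T cells (called miR-23 Tg and so on; 3 libraries each) served here to place the values. All mice were C57BL/6. The promoter of the transgenes, the Cre line, the age of the mice and any pooling are not stated. The genotype field also writes Tg after DKO and WT, and what it denotes there is not stated. Naive cells were sorted by surface markers, among them CD4 (positive) and CD25 (negative), so Cd4 and Il2ra (CD25) took part in choosing the cells. That each library came from a separate animal is not stated. The p-values therefore cover no more than the spread among the libraries, which may be technical in part.

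MicroRNAs are short RNAs that guide Argonaute proteins to mRNAs with matching sites in their 3′ untranslated regions (3′ UTRs), which lowers the stability and translation of those mRNAs. Pairing rests mostly on the seed, bases 2 to 8 of the microRNA. Mammals carry a pair of paralogous clusters, a and b, each transcribed as a single precursor that holds a member of each of the miR-23, miR-27 and miR-24 families. Naive CD4 T cells are quiescent, recirculating cells that have not met their antigen. After activation they divide and become effector, memory, helper or regulatory cells, each with its own cytokines, receptors and transcription factors.

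The mature microRNAs are shown first because the sites sought below are the complements of their seeds. Capitals mark the seed, and the sequences and positions are from RefSeq (GRCm38.p6, plus strand). MiR-23a-3p lies at chr8:84208563-84208583, miR-27a-3p at chr8:84208727-84208747 and the miR-24-3p of Mir24-2 at chr8:84208875-84208896, so the a cluster lies within a short stretch of chromosome 8. MiR-27b-3p of the b cluster lies at chr13:63300760-63300780 and has the same seed as miR-27a-3p.
miR-23a-3p: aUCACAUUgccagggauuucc
miR-27a-3p: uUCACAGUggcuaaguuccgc
miR-27b-3p: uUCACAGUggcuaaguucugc
miR-24-3p: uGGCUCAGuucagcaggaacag

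Between 10104 and 10591 rows reached 1 RPKM in each of the cluster Tg, DKO and WT libraries. Absolute depth is unknown. Relative depth, read from the value that a single read has in low rows, was 1.082 to 1.222 in cluster Tg, 0.919 to 1.02 in DKO and 0.760 to 0.937 in WT, with DKO 1 set to 1. Some libraries stood apart before any test. Among the single transgenics, miR-27 Tg 3 had the highest mean over ribosomal protein genes (1721 RPKM), the lowest relative depth (0.528) and the most extreme score on the first principal component (118, against 49.1 for DKO 3). DKO 3 had a mean of 1291 RPKM over ribosomal protein genes, against 648 and 723 in the other DKO libraries. Cluster Tg 2 held both the X-linked Xist (45.8 RPKM) and the Y-linked Ddx3y (20.1 RPKM). Each other library of these 3 genotypes had either Xist or Ddx3y at no more than 0.0449 RPKM. Xist was high in cluster Tg 1, DKO 2 and 3, and WT 2 and 3 (25.11 to 96.95 RPKM). Ddx3y was high in cluster Tg 3, DKO 1 and WT 1 (43.45 to 52.55 RPKM). Each genotype thus held libraries of both sexes, and the part of sex in the differences was not tested. Over all 18 libraries, the second principal component (15.59% of the variance) separated the cluster, miR-24 and miR-27 transgenics (-40.1 to -6.105) from DKO, WT and the miR-23 transgenics (17.01 to 27.3). No source says whether the libraries on each side of that split shared a preparation, and such a batch and the difference of cluster Tg from DKO cannot be told apart. Of the naive CD4 T cell markers, Cd3e stood at 283 to 302 RPKM in cluster Tg, 298 to 387 in DKO and 308 to 363 in WT, and the 8 markers tested together summed to 3370 to 3471 RPKM in cluster Tg, 3223 to 3463 in DKO and 3224 to 3381 in WT.

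The hairpins of the a cluster were far higher in cluster Tg than in DKO. Mir23a stood at 176400, 64700 and 32830 RPKM in cluster Tg, at 0, 0 and 76.1 in DKO and at 279.5, 82.8 and 0 in WT. Mir27a stood at 172300, 67410 and 35500 RPKM in cluster Tg, at 36.3, 39.5 and 0 in DKO and at 130.8, 193.7 and 95.6 in WT. Mir24-2 stood at 70490, 26690 and 16950 RPKM in cluster Tg, was listed at 0 in all 3 DKO libraries and stood at 34.5, 46.0 and 18.9 in WT. The cluster Tg libraries were in the same order for all 3 hairpins, and no cluster Tg value came near a DKO or WT value. DKO lay below WT for Mir27a and Mir24-2, and overlapped WT for Mir23a. The moderated test of limma, run on log2(RPKM + 1) over all rows with Benjamini-Hochberg adjustment, called each of the 3 at an adjusted p under 0.05: Mir24-2 at 0.000113, Mir27a at 0.0072 and Mir23a at 0.00818. Log2 changes in what follows are cluster Tg minus DKO on the log2(RPKM + 1) scale; the added 1 shrinks the changes of low rows. The hairpins of the b cluster (Mir23b, Mir27b and Mir24-1) were at or effectively at 0 in the libraries of all 3 genotypes, so its deletion could not be checked in these values. Reads of near-identical hairpins may have been shared between the clusters, so these levels are uncertain. A further 10 microRNA rows were above 0 in every cluster Tg library and listed at 0 in all DKO and WT libraries.

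Many more genes rose than fell in cluster Tg relative to DKO, and the rises were larger. Of 10556 rows, 1029 were called (9.75%), 690 of them higher (6.54%) and 339 lower (3.21%) in cluster Tg. A log2 change of at least 1 was seen for 322 of the higher and 69 of the lower calls, and of at least 2 for 69 and 3. The median over all rows was -0.01 and the median SE 0.16. Of the 202 rows that passed the filter only through cluster Tg, 177 were called, and of the 47 that passed only through DKO, 27; rows kept in that way had to differ. The split between directions moved with the scaling: after quantile normalisation 564 rows were higher and 530 lower (51.6% of calls higher, against 67.1%), with 529 of the 690 and 325 of the 339 calls kept. DKO 3 set the spread more than any other library: without it 1308 rows were higher and 921 lower. Without any of the other 5 libraries in turn, 272 to 348 were higher and 43 to 104 lower. All 690 and all 339 kept their direction without each library in turn, and 213 and 34 kept their call as well. In what follows a call is said to hold where it was kept without each of the 6 libraries in turn; other calls are given with the libraries they needed. With cluster Tg 2 and DKO 3 both left out, 761 rows were higher and 428 lower. With 3 libraries against 3 an exact permutation test can go no lower than p = 0.1, so no single gene could pass such a test alone.

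**Figure D1:**
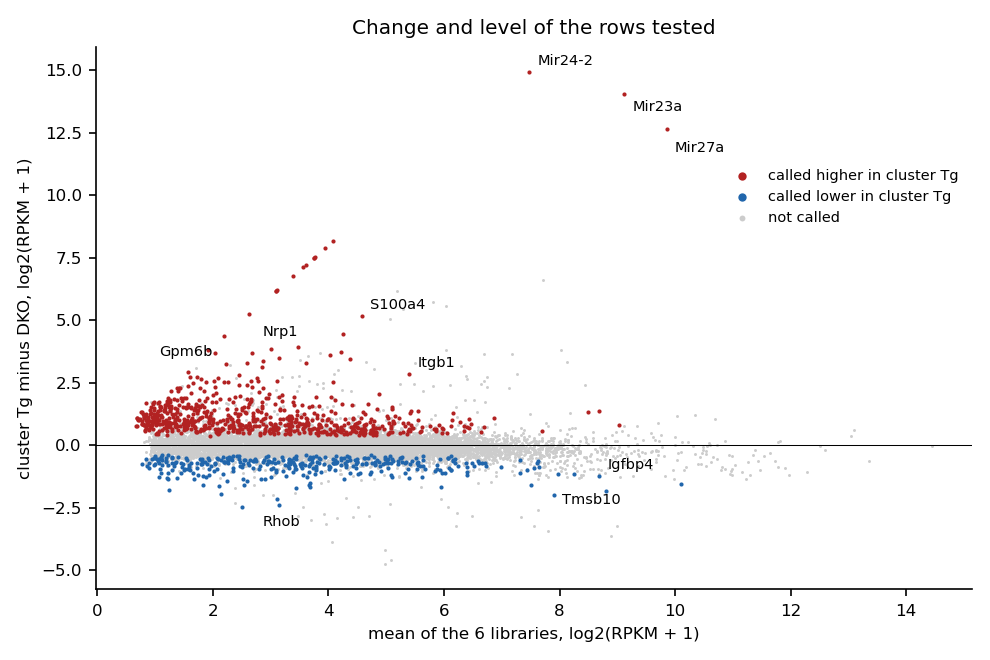
Each point is a row of the 10556 tested; the x axis is the mean of the 6 libraries and the y axis the difference of cluster Tg minus DKO, both on the log2(RPKM + 1) scale. Red points are the 690 rows called higher in cluster Tg, blue points the 339 called lower and grey points those not called; the 3 hairpins stand at the top, and the higher calls reach further from 0 than the lower ones.

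Among the genes with the largest rises were several known from motile and antigen-experienced T cells. S100a4, a calcium-binding protein of motile cells, stood at 225, 141 and 92.3 RPKM in cluster Tg, 5.59, 2.44 and 1.71 in DKO and 13.3, 19.1 and 8.67 in WT (log2 change 5.19, SE 0.43, adjusted p = 0.00361). The lowest cluster Tg library lay far above the highest DKO and WT libraries. Its relative S100a6 stood at 147, 76.8 and 60.1 RPKM in cluster Tg, 4.92, 2.25 and 2.58 in DKO and 5.39, 9.499 and 5.16 in WT (log2 change 4.44, SE 0.38, adjusted p = 0.00392). Anxa2, a membrane-binding annexin, stood at 84.7, 61.03 and 61.6 RPKM in cluster Tg, 6.34, 4.23 and 5.41 in DKO and 9.04, 11.4 and 6.81 in WT (log2 change 3.47, SE 0.19, adjusted p = 0.000807). Here the cluster Tg libraries were close to each other, and WT lay a little above DKO in every library. Itgb1, the beta 1 integrin chain that mediates adhesion to extracellular matrix, stood at 148, 99.7 and 98.7 RPKM in cluster Tg, 17.96, 14.2 and 12.3 in DKO and 20.99, 23.1 and 21.9 in WT (log2 change 2.87, SE 0.21, adjusted p = 0.00299). Ahnak, a very large scaffold protein, rose by a log2 of 3.31 (adjusted p = 0.00623). The calls of all 5 held.

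The largest rises also included a chemokine receptor and proteins of cytotoxic granules, although not every cytotoxic gene rose. Cxcr3, the receptor that takes T cells to inflamed tissue, stood at 30.99, 21.5 and 16.1 RPKM in cluster Tg, 1.39, 0.484 and 0.538 in DKO and 0.9099, 1.59 and 1.86 in WT (log2 change 3.71, SE 0.29, adjusted p = 0.00332). Gzmk, a granzyme of effector and memory cells, stood at 18.9, 16.3 and 8.12 RPKM in cluster Tg, 0.312, 0.0679 and 0.0612 in DKO and 0.2996, 0.1997 and 0.246 in WT (log2 change 3.68, SE 0.30, adjusted p = 0.00356). DKO and WT overlapped for both genes, and neither reached any cluster Tg value. Nkg7, a membrane protein of cytotoxic granules, rose to 49.2, 29.8 and 15.8 RPKM in cluster Tg, against 2.11, 0.787 and 2.304 in DKO (log2 change 3.49, SE 0.44, adjusted p = 0.00818). Ly6c2, a surface antigen of memory cells, rose to 102, 48.8 and 35.6 RPKM in cluster Tg, against 3.38, 3.68 and 3.86 in DKO (log2 change 3.63, SE 0.36, adjusted p = 0.00503). The hairpins were highest in cluster Tg 1 and lowest in cluster Tg 3. S100a4 and S100a6 kept that order, while Anxa2, Tmem176b and Gpm6b did not. The mean over ribosomal protein genes ran the other way (346, 427 and 513 RPKM in cluster Tg 1, 2 and 3). A link to hairpin level was not tested. The hairpin order was also seen for Cxcr3, Gzmk, Nkg7 and Ly6c2. Those calls held, whereas that of the chemokine Ccl5 (42.4, 27.4 and 9.82 RPKM in cluster Tg, 0.897, 1.34 and 1.65 in DKO; log2 change 3.38) needed cluster Tg 2 and DKO 1 (adjusted p up to 0.0572 without either of them). Ctsw, a cathepsin of cytotoxic cells, fell to 29.7, 22.5 and 25.6 RPKM in cluster Tg, against 55.5, 50.6 and 99.6 in DKO (log2 change -1.31, SE 0.27, adjusted p = 0.0344), with a call that needed every library but DKO 3. Prf1, perforin, had 10.5, 10.6 and 10.8 RPKM in cluster Tg and 12.97, 12.6 and 13.8 in DKO and was not called (adjusted p = 0.114).

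The other genes among the 15 largest rises had varied roles. Nrp1, a co-receptor found on thymus-derived regulatory T cells, stood at 42.01, 24.8 and 24.7 RPKM in cluster Tg, 1.64, 0.9996 and 0.737 in DKO and 2.197, 2.33 and 1.93 in WT (log2 change 3.87, SE 0.26, adjusted p = 0.00225). The neighbouring genes Tmem176a and Tmem176b rose by a log2 of 3.93 and 3.74 (adjusted p = 0.00298 and 0.00356). Tmem176b stood at 104, 52.7 and 56.4 RPKM in cluster Tg, 4.79, 2.86 and 4.98 in DKO and 3.602, 5.34 and 2.47 in WT. Gpm6b, a proteolipid best known from the nervous system, had the smallest SE of the 15: 14.5, 11.9 and 13.9 RPKM in cluster Tg, 0.565, 0.6003 and 0.402 in DKO and 0.614, 0.732 and 0.5903 in WT (log2 change 3.24, SE 0.12, adjusted p = 0.00014). Nrn1, a small membrane-anchored protein, rose to 23.7, 19.4 and 12.8 RPKM in cluster Tg, against 0.828, 0.958 and 0.9896 in DKO (log2 change 3.31, SE 0.22, adjusted p = 0.00225). Coro2a, an actin-binding coronin, stood at 29.9, 18.1 and 15.4 RPKM in cluster Tg, 2.76, 1.899 and 0.313 in DKO and 2.23, 13.1 and 2.204 in WT (log2 change 3.13, SE 0.43, adjusted p = 0.0111). All these calls held. Gpm6b, Nrn1 and Gzmk had no DKO library at 1 RPKM and passed the filter only through cluster Tg.

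**Figure D2:**
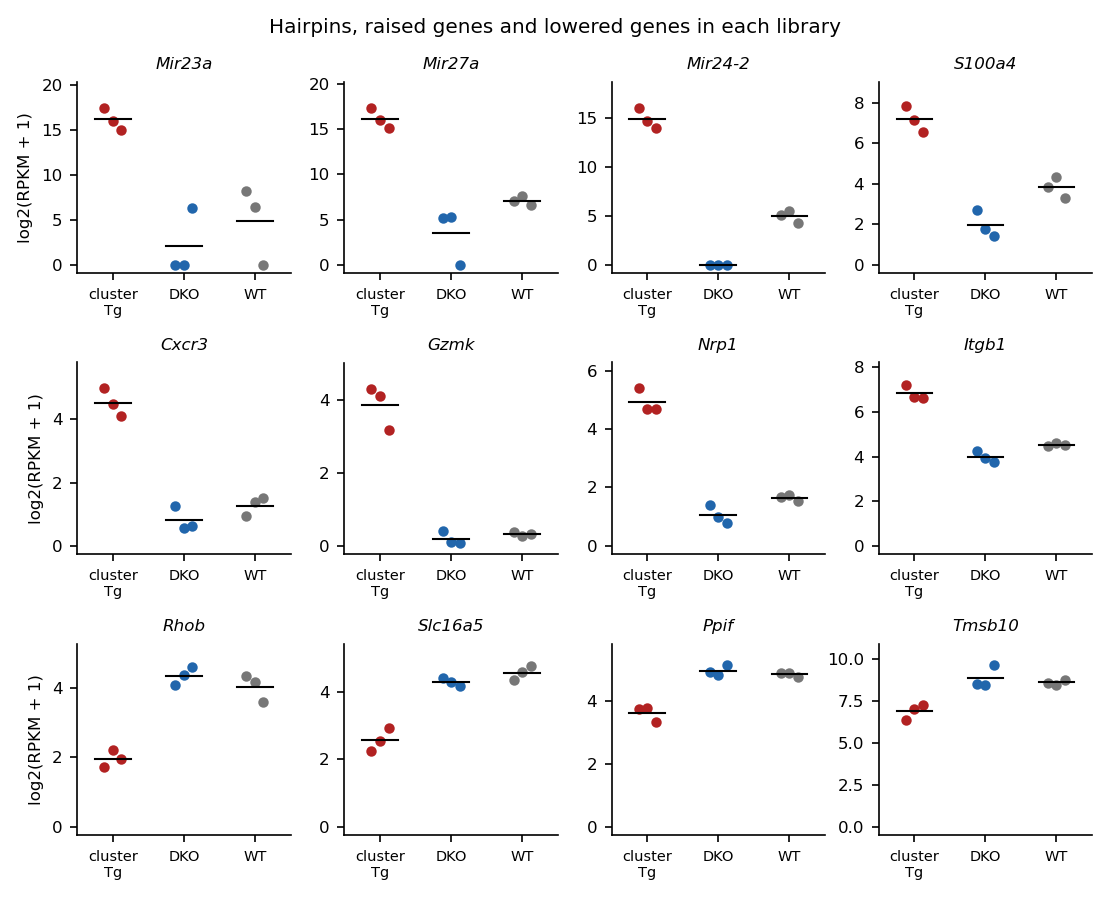
Values of 12 genes in each library, as log2(RPKM + 1): the 3 hairpins, 5 genes that rose and 4 that fell in cluster Tg relative to DKO. Points are libraries 1, 2 and 3 from left to right and black lines are means. In every panel the cluster Tg points lie apart from the DKO points, which was required of the largest rises and falls when they were chosen. The WT mean is nearer to the DKO mean than to the cluster Tg mean.

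Of 32 effector and memory genes, 29 were tested, and 23 rose while 1 fell in cluster Tg, against 6.54% and 3.21% over all rows. Of these 29, 6 passed the filter only through cluster Tg (among them Gzmk, Ifng and Tbx21) and so had to differ; 17 of the other 23 rose. The median log2 change over the list was 1.79, against -0.01 over all rows. The summed level of the list was 2224 to 2841 RPKM in cluster Tg, 889 to 1208 in DKO and 1052 to 1182 in WT. Fasl, a ligand that triggers cell death, was the member that fell, at 3.08, 3.38 and 3.696 RPKM in cluster Tg and 5.28, 7.25 and 5.66 in DKO (log2 change -0.68, SE 0.14, adjusted p = 0.0328), a call that every library but DKO 3 was needed for. Cd44, the adhesion receptor used to tell memory from naive cells and named here after its values were seen, stood at 24.7, 20.7 and 19.4 RPKM in cluster Tg, 7.14, 7.88 and 5.16 in DKO and 9.31, 10.1 and 12.7 in WT (log2 change 1.56, SE 0.17, adjusted p = 0.00626), and its call held. The count of higher members fell to 11 without cluster Tg 2, and to 13 without DKO 1 or without DKO 2. It was 14 with cluster Tg 2 and DKO 3 both left out. These are bulk libraries, in which more cells of a type and more RNA per cell cannot be told apart.

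Genes listed for the helper lineages rose in several lineages at once, although the lineage transcription factors Gata3 and Bcl6 were not called. No tested member of the Th1, Th2, Th17, Treg or Tfh lists was lower in cluster Tg, by limma's adjusted p or at an unadjusted p under 0.05. Over all rows, 6.54% were called higher and 3.21% lower. Of 14 Th1 genes 12 were tested and 6 rose; 4 of the 6 (Tbx21, Ifng, Il12rb2 and Il18rap) passed the filter only through cluster Tg and so had to differ, while 2 of the other 8 rose. Tbx21, the transcription factor of the Th1 lineage, stood at 4.77, 3.48 and 2.06 RPKM in cluster Tg, 0.406, 0.187 and 0.153 in DKO and 0.3002, 0.3502 and 0.309 in WT (log2 change 1.79, SE 0.24, adjusted p = 0.0102), and the call held. Ifng, the Th1 cytokine, stood at 8.93, 4.902 and 2.45 RPKM in cluster Tg, 0.476, 0.159 and 0.0359 in DKO and 0.483, 0.742 and 0.626 in WT (log2 change 2.28, SE 0.38, adjusted p = 0.0186). Its call needed cluster Tg 2, DKO 1 and DKO 2 (adjusted p up to 0.0728). Of 15 Th2 genes 9 were tested and 3 rose; of the 3, Ccr4 passed the filter only through cluster Tg. Ccr4, a chemokine receptor, stood at 10.4, 8.27 and 7.997 RPKM in cluster Tg and 0.995, 0.696 and 0.362 in DKO (log2 change 2.56, SE 0.18, adjusted p = 0.00242). Maf, a transcription factor shared with Tfh cells, stood at 14.6, 13.03 and 13.2 RPKM in cluster Tg and 3.29, 2.69 and 1.27 in DKO (log2 change 2.15, SE 0.24, adjusted p = 0.00626). Gata3, the transcription factor of the Th2 lineage, had 38.4, 34.9 and 24.6 RPKM in cluster Tg and 29.8, 29.98 and 25.6 in DKO (adjusted p = 0.593). Of 13 Th17 genes 6 were tested and 3 rose; 2 of the 3 (Il21 and Ccr6) passed the filter only through cluster Tg, and 1 of the other 4 rose. Il21, a cytokine of Th17 and Tfh cells, stood at 2.11, 1.85 and 1.96 RPKM in cluster Tg and 0.267, 0.111 and 0.262 in DKO (log2 change 1.29, SE 0.11, adjusted p = 0.00356). Ccr6, a chemokine receptor of Th17 cells, stood at 2.57, 2.81 and 1.53 RPKM in cluster Tg and 0.232, 0.133 and 0 in DKO (log2 change 1.54, SE 0.18, adjusted p = 0.0072). The calls of Ccr4, Maf, Il21 and Ccr6 held. The Th1 count was 3 without cluster Tg 2 or DKO 1, and 2 without DKO 2.

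Genes of regulatory T cells (Treg) and follicular helper cells (Tfh) followed, to be read against the 6.54% called higher over all rows. Of 18 Treg genes 15 were tested and 10 rose. Il2ra and Entpd1 passed the filter only through cluster Tg, and 8 of the other 13 rose. The list summed to 462 to 474 RPKM in cluster Tg, 222.5 to 293 in DKO and 275 to 325 in WT. Foxp3, the transcription factor that defines Treg cells and named here after its values were seen, stood at 5.01, 4.81 and 4.51 RPKM in cluster Tg, 1.88, 1.89 and 1.04 in DKO and 2.96, 2.59 and 2.596 in WT (log2 change 1.17, SE 0.16, adjusted p = 0.0111), with a call that needed cluster Tg 1 and cluster Tg 2 (adjusted p up to 0.0533). Ikzf2, which encodes the transcription factor Helios, stood at 16.4, 9.47 and 7.68 RPKM in cluster Tg and 1.61, 0.971 and 0.527 in DKO (log2 change 2.55, SE 0.31, adjusted p = 0.00758). Nt5e (CD73) and Entpd1 (CD39), which together turn extracellular ATP into adenosine, rose by a log2 of 1.61 and 1.33 (adjusted p = 0.0072 and 0.00559). The inhibitory receptor Tigit stood at 14.1, 9.16 and 7.63 RPKM in cluster Tg and 0.8702, 1.79 and 0.332 in DKO (log2 change 2.53, SE 0.32, adjusted p = 0.00862). The cluster Tg values of these 5 genes lay above all DKO values, which was true of 2022 of the 10556 rows tested. Of 15 Tfh genes 14 were tested and 9 rose. Il21 and Tox2 passed the filter only through cluster Tg, and 7 of the other 12 rose. Cxcr5, which brings Tfh cells to B cell follicles, stood at 9.598, 9.83 and 10.5 RPKM in cluster Tg and 2.34, 1.41 and 1.75 in DKO (log2 change 1.97, SE 0.14, adjusted p = 0.00298). Pdcd1 (PD-1), an inhibitory receptor, stood at 17.5, 14.4 and 13.8 RPKM in cluster Tg and 3.13, 1.44 and 2.52 in DKO (log2 change 2.30, SE 0.21, adjusted p = 0.00397), and Tox2, a nuclear factor of Tfh cells, rose by a log2 of 1.81 (adjusted p = 0.00758). Bcl6, the transcription factor of the Tfh lineage, had 18.6, 16.3 and 13.7 RPKM in cluster Tg and 8.46, 11.5 and 9.89 in DKO, and was not called (adjusted p = 0.0532). Apart from Foxp3, the calls named here held. The Treg count was 6 without any of the 3 cluster Tg libraries in turn, and the Tfh count 5 without cluster Tg 1 or DKO 1. With cluster Tg 2 and DKO 3 both left out, 11 Treg, 10 Tfh and 3 Th1 genes rose.

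**Figure D3:**
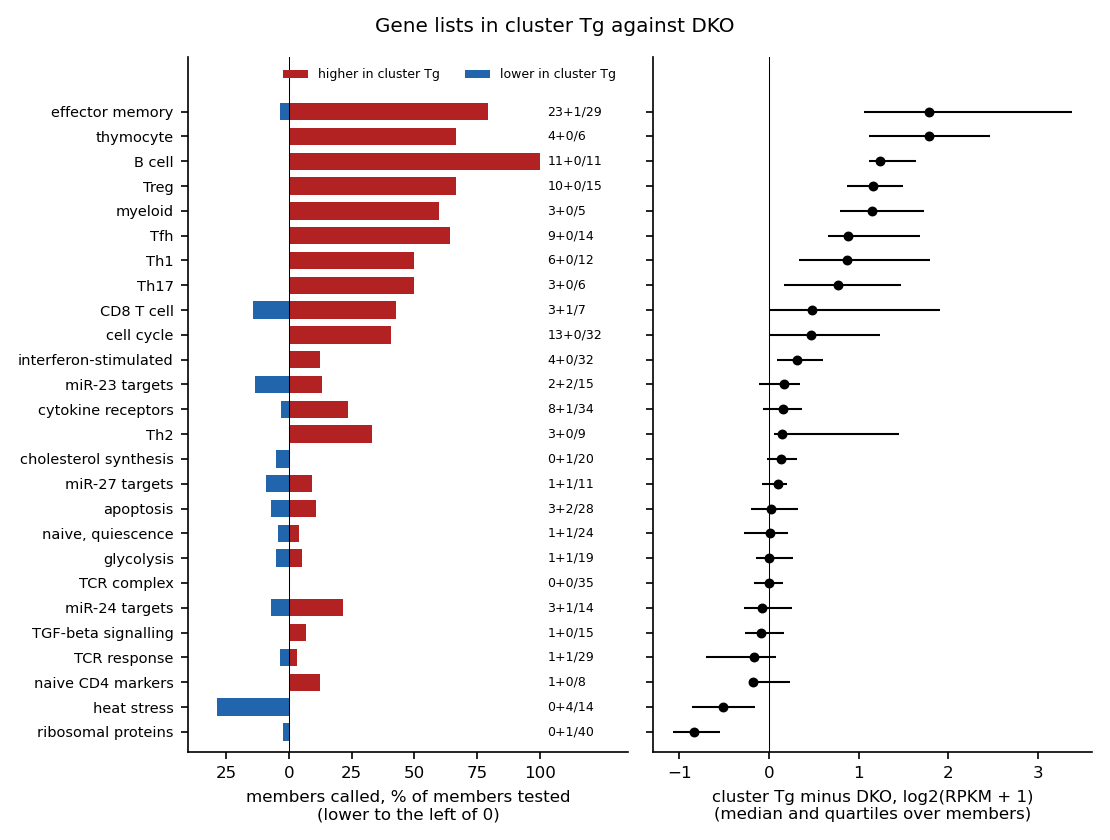
Left, share of tested members of each list called higher (red, to the right of 0) or lower (blue, to the left) in cluster Tg than in DKO, with the counts printed as higher + lower / tested; right, median and quartiles of the log2(RPKM + 1) difference over the members. The 26 lists with at least 5 tested members are shown, without the sex-linked list, and the tested members called higher were 11 of 11 for the B cell list and 23 of 29 for the effector memory list.

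Markers of other cells moved with these genes, and are set against the 6.54% called higher and 3.21% called lower over all rows. All 11 B cell markers tested of 15 rose, 5 of which passed the filter only through cluster Tg and 6 of which did not. The list summed to 98.2 to 189 RPKM in cluster Tg, 31.6 to 44.5 in DKO and 22.8 to 35.0 in WT. H2-Ab1, an MHC class II chain, stood at 12.1, 10.9 and 19.9 RPKM in cluster Tg, 4.304, 3.51 and 3.49 in DKO and 3.61, 2.89 and 2.83 in WT (log2 change 1.64, SE 0.23, adjusted p = 0.0112). Its call held without each library, but in a fit of all 18 libraries none of the 11 was called by limma's adjusted p, although all 11 had an unadjusted p under 0.05. With miR-27 Tg 3 left out of that fit 8 were called. The count was 2 without DKO 1, 3 without DKO 2, 4 without cluster Tg 1 and 7 without cluster Tg 2. Cluster Tg 3 was the highest library for these markers, whereas cluster Tg 1 was the highest for S100a4, Gzmk and Cxcr3. Of 7 CD8 T cell markers 3 rose and 1 (Ctsw) fell, and the list summed to 115 to 178.5 RPKM in cluster Tg, 114 to 165 in DKO and 117 to 129 in WT. Cd8a, a chain of the CD8 co-receptor, stood at 11.2, 6.99 and 3.29 RPKM in cluster Tg, 0.317, 0.345 and 0.285 in DKO and 0.211, 0.442 and 0.5296 in WT (log2 change 2.51, SE 0.36, adjusted p = 0.0123), with a call that needed cluster Tg 2. It passed the filter only through cluster Tg, and 2 of the other 6 CD8 markers rose. The count of higher CD8 markers was 1 without that library. The other chain, Cd8b1, stood at 39.1, 31.6 and 29.4 RPKM in cluster Tg and 21.2, 20.1 and 30.04 in DKO (adjusted p = 0.168).

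Of 9 myeloid markers 5 were tested and 3 rose, against 6.54% called higher over all rows. Lyz2 and Ccr2 passed the filter only through cluster Tg, and 1 of the other 3 rose. Itgam (CD11b), an integrin chain, stood at 16.7, 10.1 and 9.69 RPKM in cluster Tg and 1.25, 1.71 and 1.17 in DKO (log2 change 2.44, SE 0.22, adjusted p = 0.00397). Lyz2, lysozyme, stood at 3.66, 2.19 and 2.89 RPKM in cluster Tg and 0.559, 0.984 and 0.717 in DKO (log2 change 1.15, SE 0.17, adjusted p = 0.0144; it needed cluster Tg 3 and DKO 1). The chemokine receptor Ccr2 was the third, with a call that needed cluster Tg 2, DKO 1 and DKO 2. A single myeloid marker rose without DKO 1. The myeloid list summed to 26.1 to 41.3 RPKM in cluster Tg, 13.3 to 20.8 in DKO and 11.1 to 21.4 in WT, while Csf1r, which defines macrophages, was at 0.194 to 0.261 RPKM in cluster Tg and at most 0.0800 in DKO. No neutrophil marker passed the filter, and that list summed to at most 0.785 RPKM in cluster Tg and 0.887 in DKO. Of 7 NK cell markers 2 were tested and neither was called (adjusted p = 0.158 for Klrd1 and 0.312 for Tyrobp). Of 6 thymocyte genes tested of 9, 4 rose (Dntt, Ikzf2, Ccr9 and Cd8a, the last kept only through cluster Tg), and the list summed to 64.6 to 99.9 RPKM in cluster Tg, 21.0 to 31.0 in DKO and 24.1 to 28.2 in WT. Of the thymocyte genes Rag1, Rag2 and Ptcra, which are made in the thymus, none exceeded 0.0105 RPKM in cluster Tg or 0.0370 in DKO, while Dntt, the DNA polymerase that adds untemplated bases to receptor genes, stood at 24.9, 17.8 and 18.6 RPKM in cluster Tg and 7.198, 7.01 and 10.5 in DKO (log2 change 1.22, SE 0.20, adjusted p = 0.0167; needed every library but DKO 3). The part of B, CD8 or myeloid cells in the rise of the effector and lineage genes was not tested. The plot of summed levels shows these lists beside the T cell lists.

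**Figure D4:**
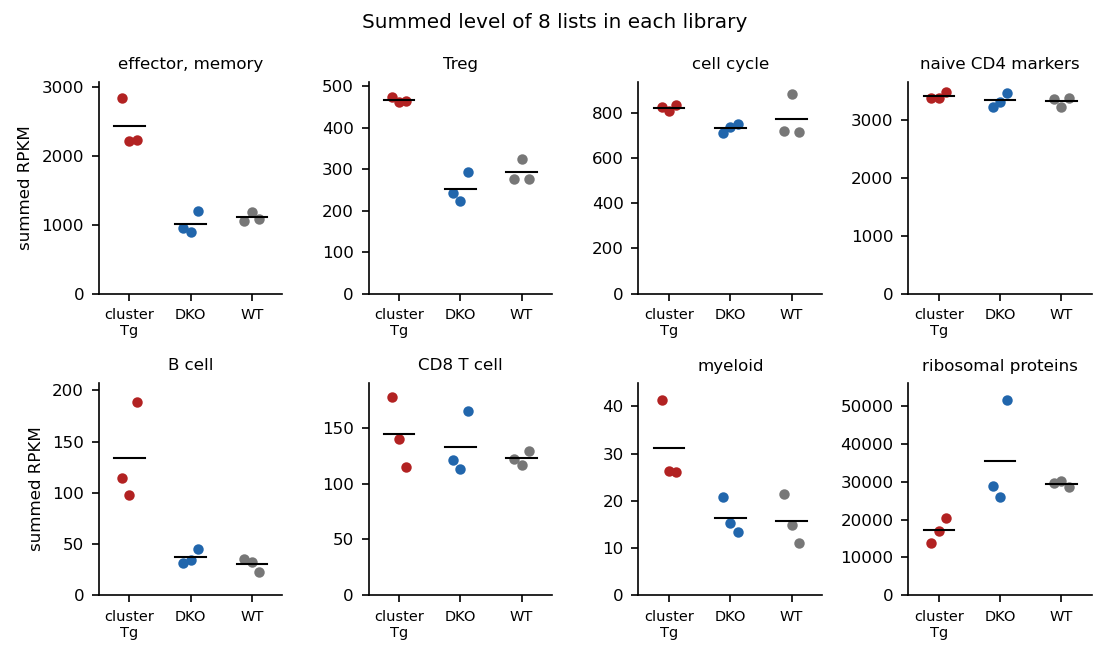
Summed RPKM of 8 lists in each library, with points for libraries 1, 2 and 3 from left to right and black lines for means. The effector and Treg sums of the 3 cluster Tg libraries lie above all DKO and WT libraries, as do the B cell sums (98.2 to 189 against at most 44.5), while the naive CD4 marker sums overlap and the ribosomal sums of cluster Tg lie below.

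Few genes of the naive state and of the T cell receptor (TCR) were called, with shares near or below the 6.54% and 3.21% over all rows. Of 24 naive and quiescence genes, 1 rose and 1 fell, with a median of 0.02. Igfbp4, a naive T cell gene, stood at 231, 315 and 271 RPKM in cluster Tg and 681, 488 and 738 in DKO (log2 change -1.21, SE 0.22, adjusted p = 0.0237), with a call that cluster Tg 1, 2 and 3 and DKO 1 were each needed for. The naive homing receptor Ccr7 had 179, 212 and 234 RPKM in cluster Tg and 269.8, 335 and 362 in DKO, groups that did not overlap but were not called (adjusted p = 0.0815). None of 35 genes of the TCR complex and its proximal signalling was called, with a median of 0.00; at an unadjusted p under 0.05 limma had 2 higher and 1 lower. Of 29 genes of the early TCR response 1 rose and 1 fell. The transcription factor subunit Jun stood at 189, 276 and 165 RPKM in cluster Tg and 398, 458 and 513 in DKO (log2 change -1.15, SE 0.23, adjusted p = 0.0318), a call that cluster Tg 1 and 3 and DKO 1 and 2 were each needed for. Without DKO 3, 4 naive genes rose and 3 fell.

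Proliferation and cytokine receptor genes rose in part, against 6.54% called higher and 3.21% called lower over all rows. Of 32 cell cycle genes tested 13 rose, of which 3 (Ccna2, Cdk1 and Aurkb) passed the filter only through cluster Tg; 10 of the other 29 rose. None was called lower, and 1 was lower at an unadjusted p under 0.05 (limma). Mki67, the proliferation antigen, stood at 8.23, 5.77 and 7.21 RPKM in cluster Tg, 1.19, 1.22 and 0.645 in DKO and 1.51, 5.42 and 1.93 in WT (log2 change 2.00, SE 0.18, adjusted p = 0.00397). Top2a, the topoisomerase of dividing cells, stood at 11.1, 7.27 and 10.3 RPKM in cluster Tg, 2.48, 2.43 and 2.91 in DKO and 2.602, 11.04 and 4.09 in WT (log2 change 1.53, SE 0.17, adjusted p = 0.00603). WT 2 stood with the cluster Tg libraries for both genes, above the other WT libraries. The replication factors Pcna and Mcm5 had log2 changes of -0.05 and -0.07 (adjusted p = 0.812 and 0.677). The cell cycle count was 9 to 16 without each library in turn. Of 34 genes of cytokine receptors and JAK-STAT signalling 8 rose and 1 fell. Il2ra, Il12rb2 and Il18rap passed the filter only through cluster Tg, and 5 of the other 31 rose. Il2ra (CD25), on which the cells were sorted, was among the 8 and needed cluster Tg 1, cluster Tg 3, DKO 1 and DKO 2. Ifngr2, a chain of the interferon gamma receptor, fell, with a call that needed every library but DKO 3. Il2rb, the chain of the receptor for interleukin-2 and interleukin-15, stood at 77.1, 58.03 and 46.3 RPKM in cluster Tg and 18.4, 14.8 and 8.49 in DKO (log2 change 2.08, SE 0.31, adjusted p = 0.0137; it needed cluster Tg 1 and cluster Tg 2). Il10ra, the interleukin-10 receptor chain, stood at 39.8, 30.3 and 28.5 RPKM in cluster Tg and 10.1, 10.1 and 8.48 in DKO (log2 change 1.67, SE 0.16, adjusted p = 0.00397). That count was 2 or 3 without any library other than DKO 3, and 10 without DKO 3.

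Of 28 apoptosis genes 3 rose and 2 fell, against 6.54% and 3.21% over all rows. Bid, a pro-apoptotic BH3 protein, fell to 7.03, 6.79 and 6.57 RPKM in cluster Tg, against 11.8, 11.7 and 12.01 in DKO (log2 change -0.72, SE 0.09, adjusted p = 0.00814), and its call held. The apoptosis counts were 0 to 5 higher and 1 to 3 lower without each library in turn. Pdk1, a kinase that restrains pyruvate dehydrogenase, fell to 42.1, 51.9 and 51.9 RPKM in cluster Tg, against 100.4, 99.5 and 92.4 in DKO (log2 change -0.99, SE 0.12, adjusted p = 0.00806). Aldoc, a glycolytic aldolase, rose to 4.94, 4.14 and 5.21 RPKM in cluster Tg, against 1.396, 1.17 and 1.56 in DKO (log2 change 1.28, SE 0.12, adjusted p = 0.0043). They were the members called of 19 glycolysis genes, and both calls held. Of 40 ribosomal protein genes 1, Rps20, was called lower, while 25 were lower at an unadjusted p under 0.05 and the median of the list was -0.84. Its summed level was 13860 to 20510 RPKM in cluster Tg, 25930 to 51620 in DKO and 28500 to 30340 in WT. Without DKO 3, 7 ribosomal genes were lower, and at most 1 was without any other library. Counts of lower ribosomal genes were 4 after quantile normalisation and 4 with a block for the replicate number, 5 in the fit of 18 libraries and 27 in that of 17 libraries without miR-27 Tg 3. Of 14 heat and dissociation stress genes 4 fell, among them the chaperone Hsph1 (42.7, 42.4 and 39.7 RPKM in cluster Tg, 79.2, 109 and 86.4 in DKO; log2 change -1.10, SE 0.14, adjusted p = 0.00871) and Jun, which is also on the early response list. That stress count was 1 without cluster Tg 1, cluster Tg 3 or DKO 2, and 2 without cluster Tg 2 or DKO 1. RNA quality measures are not stated, and their part in these differences was not tested.

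The genes that fell most had smaller changes and varied roles. Rhob, a small GTPase of the endosome and cytoskeleton, stood at 2.32, 3.59 and 2.85 RPKM in cluster Tg, 15.8, 19.7 and 23.3 in DKO and 19.1, 17.1 and 11.03 in WT (log2 change -2.39, SE 0.19, adjusted p = 0.00332). Rgs11, a regulator of G protein signalling, stood at 2.02, 3.67 and 3.87 RPKM in cluster Tg, 16.2, 16.7 and 18.8 in DKO and 17.2, 12.2 and 19.2 in WT (log2 change -2.15, SE 0.20, adjusted p = 0.00397). In both, DKO and WT overlapped and cluster Tg stood below either. Fam46a, a non-canonical poly(A) polymerase, stood at 0.559, 1.53 and 1.93 RPKM in cluster Tg, 8.13, 7.57 and 7.42 in DKO and 8.27, 6.49 and 10.5 in WT (log2 change -1.95, SE 0.24, adjusted p = 0.00758). Slc16a5, of the monocarboxylate transporter family, stood at 3.79, 4.79 and 6.65 RPKM in cluster Tg, 20.3, 18.5 and 16.9 in DKO and 19.4, 23.2 and 26.2 in WT (log2 change -1.71, SE 0.19, adjusted p = 0.00606). Tspan9, a tetraspanin, and Gbp11, a guanylate-binding protein, fell by 1.41 and 1.36 on the log2 scale (adjusted p = 0.00679 and 0.00392). These 6 calls held.

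Tmsb10, an actin-binding thymosin, stood at 83.2, 129.5 and 157 RPKM in cluster Tg, 375, 352 and 827 in DKO and 391, 361 and 439 in WT (log2 change -1.99, SE 0.40, adjusted p = 0.031). Ndufa3, a subunit of respiratory complex I, stood at 84.5, 94.7 and 141 RPKM in cluster Tg, 256, 250.0 and 494 in DKO and 252, 302 and 266 in WT (log2 change -1.59, SE 0.33, adjusted p = 0.0348). DKO 3 was the highest DKO library for both genes, and without it their log2 changes were -1.60 and -1.27. Each of the other 5 libraries was needed for both calls. Cnga1, Rnf32, Ppm1j, Rps20 and Matk complete the 15 largest falls together with Ppif and Gt(ROSA)26Sor; the calls of these first 5 each needed at least 3 of the 6 libraries. Gt(ROSA)26Sor, the non-coding transcript of the Rosa26 locus into which transgenes are often placed in mice, stood at 4.62, 7.02 and 7.07 RPKM in cluster Tg, 15.3, 21.98 and 30.9 in DKO and 14.1, 20.5 and 16.8 in WT (log2 change -1.68, SE 0.28, adjusted p = 0.0178), with a call that each library but DKO 1 and DKO 3 was needed for. It had 5.36, 4.96 and 20.7 RPKM in miR-27 Tg, 6.83 ± 2.11 in miR-24 Tg and 5.299 ± 0.0331 in miR-23 Tg (SD, n = 3 each). The site of the transgenes is not stated.

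Genes reported in the literature as targets of the 3 microRNAs are set here against the 6.54% called higher and 3.21% called lower over all rows. Of the miR-23 targets 15 were tested, of which 2 rose and 2 fell; of the miR-24 targets 14, of which 3 rose and 1 fell; and of the miR-27 targets 11, of which 1 rose and 1 fell. The medians were 0.17, -0.08 and 0.11. Ppif, the mitochondrial cyclophilin D that controls the permeability transition, stood at 12.2, 12.5 and 8.95 RPKM in cluster Tg, 29.1, 26.8 and 34.1 in DKO and 28.3, 28.4 and 25.9 in WT (log2 change -1.35, SE 0.16, adjusted p = 0.0072). The call held, and the cluster Tg values lay below all DKO and WT values. Lmnb1, the nuclear lamin B1, stood at 12.9, 13.3 and 13.2 RPKM in cluster Tg, 20.8, 19.8 and 23.1 in DKO and 22.01, 23.1 and 21.7 in WT (log2 change -0.65, SE 0.10, adjusted p = 0.0144). Mapk14, the p38 alpha kinase, stood at 53.4, 59.9 and 54.4 RPKM in cluster Tg and 80.5, 86.7 and 71.7 in DKO (log2 change -0.50, SE 0.12, adjusted p = 0.0484). Phb, prohibitin, stood at 5.28, 6.53 and 7.04 RPKM in cluster Tg and 10.7, 9.59 and 14.5 in DKO (log2 change -0.78, SE 0.18, adjusted p = 0.0467). Cluster Tg lay wholly below DKO for these 4 genes. The same was true of 1936 of the 10556 rows tested, and cluster Tg lay wholly above DKO for 2022. Among those that rose, the cell cycle transcription factor E2f2 stood at 18.6, 16.7 and 17.1 RPKM in cluster Tg and 7.302, 5.799 and 7.25 in DKO (log2 change 1.25, SE 0.12, adjusted p = 0.0043). Cyclin A2 (Ccna2) stood at 4.21, 2.88 and 4.36 RPKM in cluster Tg and 0.659, 0.503 and 0.796 in DKO (log2 change 1.53, SE 0.16, adjusted p = 0.00552). Ifng, given above, was the third of the miR-24 targets that rose; Ccna2 and Ifng passed the filter only through cluster Tg. Rora, a nuclear receptor of Th17 cells, stood at 7.11, 4.98 and 3.72 RPKM in cluster Tg and 1.49, 1.37 and 0.5601 in DKO (log2 change 1.55, SE 0.26, adjusted p = 0.0195). Prdm1 and Smad5 rose by a log2 of 0.56 and 0.47. The calls of E2f2 and Ccna2 held; those of Mapk14, Phb, Prdm1 and Smad5 each needed every library but DKO 3. The call of Lmnb1 needed DKO 1 and the 3 cluster Tg libraries, and that of Rora needed cluster Tg 1, cluster Tg 2, DKO 1 and DKO 2.

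Sites for the 3 seeds were sought as exact matches to AATGTGA (miR-23), ACTGTGA (miR-27) and CTGAGCC (miR-24) on the mRNA strand of the longest annotated 3′ UTR of each gene (GENCODE M21, GRCm38); each motif was counted on its own. A few sites are shown because they lie in genes named above; capitals mark the match, and the coordinates are those of the capitals. Ppif holds 2 sites for miR-23 (chr14:25700269-25700275 and chr14:25700437-25700443) and 1 for miR-27 (chr14:25700171-25700177), all on the plus strand. Slc16a5 holds 2 for miR-24 (chr11:115473468-115473474 and chr11:115473711-115473717, plus strand). Tmsb10 holds 1 for miR-27 (chr6:72957501-72957507, minus strand). Rora, which rose, holds 3 for miR-27 and 2 for miR-23 in a 3′ UTR of 9285 bases. The first of these is shown (chr9:69380485-69380491, plus strand). Sites of the other reported targets called are not shown. Among those that fell, Phb holds 1 for miR-27, Mapk14 holds 2 for miR-27 and 1 for miR-24, and Lmnb1 holds none. Among those that rose, Smad5 holds 2 and Prdm1 holds 1 for miR-23, and E2f2 holds 1 for miR-24. Ifng holds 2 for miR-27 but none for miR-24, and Ccna2 holds none at all.
Ppif, miR-27 site: ccctcctggtcACTGTGAatcctgctggc
Ppif, miR-23 site a: tctttctgctcAATGTGAattcccgtggt
Ppif, miR-23 site b: tgttcatctcaAATGTGAtaaataaatcc
Slc16a5, miR-24 site a: ttgagcagggcCTGAGCCagaatctcctt
Slc16a5, miR-24 site b: ctgctgctagcCTGAGCCcatggcctgga
Tmsb10, miR-27 site: ccacaagctgcACTGTGAaacccgggcac
Rora, miR-27 site: gaaaactgtggACTGTGAtttattttatt

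A 3′ UTR was found for 9483 of the 10556 rows, and matches were more frequent among the genes that fell. Of the 286 genes called lower with a 3′ UTR, 53.5% held a match for at least 1 of the 3 microRNAs, against 38.9% of the 640 called higher and 40.3% of all 9483. For each microRNA the lower genes had the higher share: 19.9% for miR-23 (16.3% of all), 22.7% for miR-27 (16.9%) and 26.9% for miR-24 (19.1%). The lower genes had shorter 3′ UTRs (median 959 bases) than the higher genes (1358) or all rows (1138). With rows split by 3′ UTR length into 3 bins of equal size, 6.86% of genes with a match in the shortest bin were called lower, against 2.78% of those without. The shares were 5.12% and 2.15% in the middle bin, and 2.83% and 1.55% in the longest. The median log2 change with and without a match was -0.17 and -0.10 in the shortest bin, -0.05 and 0.04 in the middle and 0.08 and 0.11 in the longest. Without the bins, genes with sites for 0, 1, 2 and 3 of the microRNAs were called lower in 2.35%, 3.92%, 4.43% and 2.96%. Their median log2 changes were -0.018, 0.009, 0.044 and 0.077, and their median 3′ UTR lengths 707, 1781, 2969 and 4206 bases. These shares are descriptions; genes in a library are not independent replicates, and no test was made. Of the 15 genes with the largest falls, 12 had a 3′ UTR in the annotation used and 6 of these held a match; Rhob, Rgs11, Ppm1j, Rnf32, Tspan9 and Rps20 held none.

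WT lay near DKO for nearly all genes called between cluster Tg and DKO. The WT mean was nearer to DKO than to cluster Tg for 685 of the 690 higher and 331 of the 339 lower genes, against 68.6% of all rows. On a scale with DKO at 0 and cluster Tg at 1, the median position of WT was 0.11 for the higher and 0.14 for the lower genes. WT lay beyond DKO for 156 and 74 of them (22.6% and 21.8%, against 31.1% of all rows) and beyond cluster Tg for none. The DKO and cluster Tg libraries that set this scale also chose the genes, so the positions are a description. Of the single transgenics, miR-27 Tg had medians of 0.68 and 0.47, miR-24 Tg of 0.63 and 0.57, and miR-23 Tg of 0.17 and 0.26. Without miR-27 Tg 3 the medians of miR-27 Tg were 0.77 and 0.63. All 3 miR-24 Tg libraries lay past all 3 DKO libraries, in the direction of cluster Tg, for 534 of the 690 (77.4%) and 217 of the 339 genes (64%), against 25.1% of all rows. The counts were 435 and 152 for miR-27 Tg (16.2% of all rows), 237 and 130 for miR-23 Tg (18.1%), and 87 and 30 for WT (3.65%). S100a4 had 88.5, 42.3 and 291 RPKM in miR-27 Tg, 139, 25.5 and 61.0 in miR-24 Tg, and 8.29 ± 2.53 in miR-23 Tg (SD, n = 3). Rhob had 4.35, 3.48 and 2.95 RPKM in miR-27 Tg, 5.72, 44.5 and 6.87 in miR-24 Tg, and 22.3 ± 2.27 in miR-23 Tg, so that miR-24 Tg 2 stood apart from the other miR-24 Tg libraries. Ppif had 8.82, 9.44 and 15.6 RPKM in miR-27 Tg, 24.6, 26.9 and 24.5 in miR-24 Tg, and 20.5 ± 2.02 in miR-23 Tg. The genotypes with positions near cluster Tg are also those that the second principal component put on its side, and a shared preparation of these sets and a shared effect of the transgenes cannot be told apart. A column name for miR-23 Tg occurs under a repeated header, so its 3 columns are taken as members of the genotype without numbers.

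**Figure D5:**
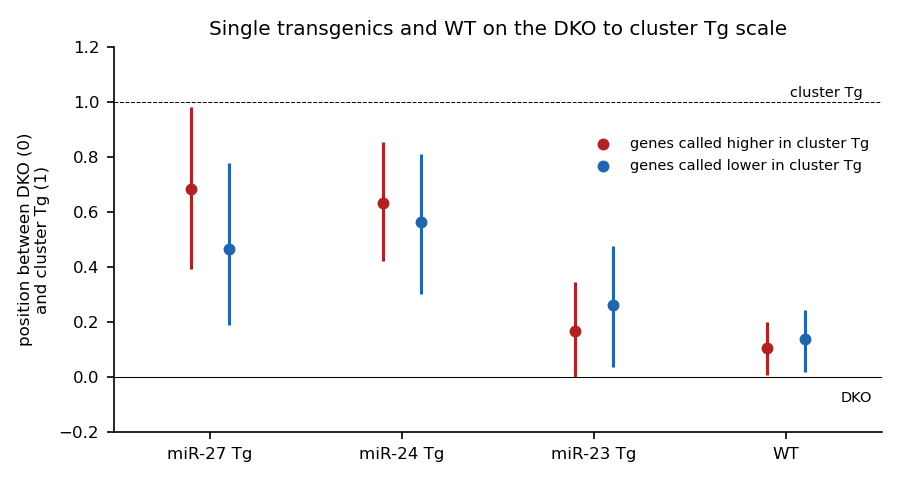
Position of miR-27 Tg, miR-24 Tg, miR-23 Tg and WT on a scale where the DKO mean is 0 and the cluster Tg mean is 1, over the 690 genes called higher (red) and the 339 called lower (blue). Points are medians and lines run between the quartiles over genes; WT sits at 0.11 and 0.14, and miR-24 Tg and miR-27 Tg above 0.4.

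Whether gain and loss stand equally far from WT was asked with the difference between the midpoint of cluster Tg and DKO and the WT mean. The weights of this contrast make its estimate uncorrelated with that of cluster Tg minus DKO, but both use the same 6 libraries. With the 9 libraries of cluster Tg, DKO and WT, WT was below the midpoint for 48 rows (0.455%) and above it for 4 (0.0379%). Of these, 43 were among the 690 genes higher and 4 among the 339 genes lower in cluster Tg, and 5 were called in neither direction between cluster Tg and DKO. Where DKO lies near WT, a large change between cluster Tg and DKO also puts WT off the midpoint. The overlap with those calls is therefore not separate evidence. Outside the microRNA rows Gpm6b had the smallest adjusted p (log2 difference 1.51, SE 0.09, adjusted p = 0.000248); hairpin rows such as Mir181a-1, Mirlet7g and Mir29a were also among the 43. Angptl2, an angiopoietin-like secreted protein that passed the filter only through cluster Tg, stood at 6.995, 6.395 and 6.96 RPKM in cluster Tg, 0.272, 0.0987 and 0.167 in DKO and 0.5303, 0.278 and 0.433 in WT (log2 difference 1.10, SE 0.09, adjusted p = 0.00232). Dleu2, a host transcript of the miR-15a and miR-16-1 hairpins, stood at 20.2, 16.4 and 16.1 RPKM in cluster Tg, 3.18, 4.16 and 3.48 in DKO and 2.897, 2.92 and 2.11 in WT (log2 difference 1.35, SE 0.12, adjusted p = 0.00357). Il21, Gzmk, Nrp1, Entpd1, Tmem176a and Tmem176b were also among the 43. Slpi, a protease inhibitor, stood at 0.0474, 0.353 and 0.491 RPKM in cluster Tg, 3.06, 2.97 and 4.23 in DKO and 3.74, 4.78 and 5.32 in WT (log2 difference -1.23, SE 0.16, adjusted p = 0.0223), and Slc16a5 and Bid were also among the 4. Leaving out DKO 3 raised the count of rows with WT below the midpoint to 108; it was 16 without cluster Tg 2, 15 without DKO 1, 25 without DKO 2, 10 without WT 1 or WT 3 and 9 without WT 2.

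The 5 rows called off the midpoint but in neither direction between cluster Tg and DKO were Rsad2, Mx1, Mx2, Oas2 and Ifit1, all induced by type I interferon and named here after their values were seen. In each, the means of cluster Tg and DKO both lay above that of WT. The choice of these rows largely fixed that pattern, so it is a description. Rsad2, an antiviral radical SAM enzyme, stood at 12.8, 9.46 and 9.84 RPKM in cluster Tg, 5.49, 7.29 and 7.15 in DKO and 3.29, 2.85 and 3.35 in WT (log2 difference 1.18, SE 0.12, adjusted p = 0.00855). Oas2, an oligoadenylate synthetase, stood at 62.4, 51.2 and 45.9 RPKM in cluster Tg, 39.01, 53.2 and 42.4 in DKO and 27.1, 24.7 and 28.4 in WT (log2 difference 0.84, SE 0.13, adjusted p = 0.0397). Ifit1 stood at 44.7, 40.3 and 49.03 RPKM in cluster Tg, 19.8, 22.4 and 37.6 in DKO and 14.6, 11.2 and 16.3 in WT (log2 difference 1.22, SE 0.20, adjusted p = 0.0495). No DKO or cluster Tg library overlapped WT for these 3 genes, which were chosen for lying off the midpoint. The share of all rows with such a gap is not given here, nor are the values of Mx1 and Mx2. Cmpk2, a mitochondrial nucleotide kinase that is also interferon-induced, stood at 19.2, 17.3 and 18.1 RPKM in cluster Tg, 9.09, 10.1 and 10.6 in DKO and 7.62, 7.12 and 7.300 in WT (log2 difference 0.79, SE 0.08, adjusted p = 0.005). Between cluster Tg and DKO, 4 of 32 interferon-stimulated genes rose, against 6.54% over all rows, with a median of 0.32. Ifit2 stood at 59.6, 51.7 and 57.5 RPKM in cluster Tg, 30.9, 34.4 and 29.03 in DKO and 29.6, 25.5 and 32.8 in WT (log2 change 0.82, SE 0.11, adjusted p = 0.0111), with a call that needed cluster Tg 1, cluster Tg 3 and DKO 1. For Cmpk2 and Ifit2, DKO against WT had an adjusted p of 0.962 in limma's fit of the 9 libraries. The list of interferon-stimulated genes summed to 1883 to 2182 RPKM in cluster Tg, 1569 to 2275 in DKO and 1247 to 1445 in WT. Its count of higher genes was 0 or 1 without any cluster Tg library or DKO 1 or 2 in turn, 12 without DKO 3, and 7 with cluster Tg 2 and DKO 3 both left out.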

How the data were processed

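Total RNA was extracted with the miRNeasy kit and made into libraries with the Illumina TruSeq RNA kit, per the labels' protocols. The deposited table holds RPKM values per gene and library, made by the authors; the submitters' processing notes name mm9 as the genome build and STAR 2.2.0c and HOMER as tools, without their roles. No read counts were used, so counting error cannot be given. Columns were assigned to genotypes by name (18 libraries, 6 genotypes). Rows with 1 RPKM or more in at least 3 of the 6 compared libraries were kept, and log2(RPKM + 1) was fitted in R 4.3.3 with limma 3.58.1, using lmFit and an eBayes variance trend, with Benjamini-Hochberg adjustment over all kept rows. A row with an adjusted p under 0.05 was called. The fit of 6 libraries gave cluster Tg minus DKO, and that of 9 libraries with WT the distance of WT from the midpoint. The steps were tested on simulated data.

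Genes named are the hairpins, the 15 largest rises and 15 largest falls among called rows whose groups do not overlap and whose higher group averages at least 5 RPKM (without small-RNA, predicted or date-like rows), up to 5 called genes per list, all called reported targets and 10 rows off the midpoint. Others are uncalled list members, or are said to be chosen after their values were seen. The members and the 33 lists (513 of 527 genes matched) were chosen with earlier results of these data known. In 27 rows the symbol had turned into a date; they were kept as they stand. Sequences are from GRCm38 (RefSeq GRCm38.p6, GENCODE M21), used for sequence only. Alternatives changed the pseudocount, filter, scaling, variance prior, libraries fitted, a block for the replicate number, and each library in turn. A few results are not reported here.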

Additional observations from a re-analysis of the deposited data

How the results depend on the processing

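Of 96 named log2 changes, 47 kept their call and direction under every alternative and 0 reversed. With a minimum of 5 RPKM, 335 genes were higher and 168 lower in cluster Tg than in DKO, with fewer genes tested. After quantile normalisation 530 were lower. A fit of all 18 libraries gave 749 higher and 454 lower, and with miR-27 Tg 3 left out of it 1391 and 1228; the cause was not tested. Leaving out each library in turn gave 272 to 1308 higher and 43 to 921 lower. For WT below the midpoint, the fit of 17 libraries gave 152 genes, and leaving out each library in turn gave 9 to 108. For WT above the midpoint, counts were 2 with a pseudocount of 0.1 and 2 with the minimum of 5 RPKM, 7 after quantile normalisation, 9 with all 18 libraries, 46 with 17, and 0 to 25 with each library left out in turn; the cause was not tested. The labels do not say that replicate numbers pair the libraries, and the same-number correlations were 0.0653, 0.139 and 0.213, not all above the 0.1 taken as pairing; 5 of the 6 libraries correlated best with their own number, which is a hint from the data and not from the design. A fit with the replicate block gave 556 higher and 249 lower, and for WT 42 below and 7 above the midpoint. Other scalings, pseudocounts and filters moved the counts of genes higher and lower by less than 1.5 times. Leaving out cluster Tg 2 together with DKO 3, the fit of 17 libraries, and leaving miR-27 Tg 3 out of the positions were chosen after the data were seen. With 3 libraries a group and no read counts, a row that was not called may still differ.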

Other observations

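Of 1073 microRNA rows other than the 3 hairpins of the a cluster, 263, 262 and 226 were above 0 in cluster Tg libraries 1, 2 and 3, against 216, 215 and 146 in DKO and 194, 193 and 170 in WT. Relative depth also differed (1.082 to 1.222 in cluster Tg, 0.919 to 1.02 in DKO and 0.760 to 0.937 in WT), and its part in these counts was not tested. The 10 rows seen in every cluster Tg library and in no DKO or WT library were chosen for that pattern. Of these 10, 7, 7 and 2 were above 0 in miR-27 Tg libraries 1, 2 and 3, 7, 5 and 5 in miR-24 Tg, and 1 or 2 in each of the miR-23 Tg libraries. Among 283 small-RNA rows tested, 19 (6.71%) were higher and 1 (0.353%) lower in cluster Tg than in DKO by limma, against 6.54% and 3.21% over all rows. Such rows are short, so few reads give a large RPKM.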
